A study of Mus musculus with 99 samples.

Results

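The adenylyl cyclase isoforms are the 9 membrane-bound enzymes that make the second messenger cyclic AMP, encoded in the mouse by Adcy1 to Adcy9. The members were chosen by name: each symbol was looked up in the GENCODE mouse annotation and its Ensembl identifier was read from the count files, which gave 9 genes of the 55335 identifiers counted. All 9 passed the filter on low counts in every region. The study profiled juvenile wild-type mice whose C57BL/6 mothers drank either plain water or water with fentanyl, an opioid agonist, at 10 µg/ml, starting on embryonic day 0 and ending at weaning. Tissue punches of females and males were taken in 5 regions: nucleus accumbens (NAc), prelimbic cortex (PrL), somatosensory cortex (S1), ventrobasal thalamus (VBT) and ventral tegmental area (VTA). This gives 20 groups (5 regions, both sexes, fentanyl or water), of which 19 have 5 libraries and the S1 male water group has 4. Litters, and whether regions came from the same mice, are not given, so p-values measure the spread between these samples.

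Each isoform turns ATP into cyclic AMP when a stimulatory G protein alpha subunit (Gs, or Golf in striatal neurons) binds it, and the isoforms differ in what else they answer to. Adcy1, Adcy8 and Adcy3 are known as isoforms stimulated by calcium and calmodulin, Adcy5 and Adcy6 as isoforms inhibited by calcium and by Gi alpha, and Adcy2, Adcy4 and Adcy7 as isoforms that G protein beta-gamma subunits stimulate together with Gs. Adcy9 stands apart as the isoform that responds poorly to forskolin. Opioid receptors couple to Gi, which lowers cyclic AMP acutely, and prolonged opioid exposure is a classic setting in which the activity of some isoforms rises again. Adcy5 is the main isoform of striatal projection neurons.

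In GRCm38 coordinates from GENCODE release M21, Adcy1 (ENSMUSG00000020431) lies on chromosome 11 at 7063489-7178506 on the plus strand. Adcy2 (ENSMUSG00000021536) lies on chromosome 13 at 68620043-68999541 on the minus strand, where an antisense gene shares exon sequence with it. Adcy3 (ENSMUSG00000020654) lies on chromosome 12 at 4133103-4213525 on the plus strand and shares exon sequence with Cenpo on the opposite strand. Adcy4 (ENSMUSG00000022220) lies on chromosome 14 at 55769057-55784095 on the minus strand. Adcy5 (ENSMUSG00000022840) lies on chromosome 16 at 35154877-35305738 on the plus strand. Adcy9 (ENSMUSG00000005580) lies on the same chromosome at 4287529-4420498 on the minus strand. Adcy6 (ENSMUSG00000022994) and Adcy8 (ENSMUSG00000022376) both lie on chromosome 15 on the minus strand, at 98589973-98610076 and 64697084-64922296. Adcy7 (ENSMUSG00000031659) lies on chromosome 8 at 88272403-88329962 on the plus strand. The Smart-Seq v4 kit does not mark strand, so reads of the overlapping partners cannot be told apart. These partners were low in the counts credited to them: Cenpo averaged 4.82 CPM (counts-per-million of all counts in genes), the Adcy2 antisense gene Gm35161 averaged 3.57 CPM and the Adcy6 antisense gene Gm29331 averaged 0.0398 CPM. Reads that HTSeq set aside as ambiguous are credited to neither gene of an overlapping pair. These averages therefore do not show how many reads fell in the shared exons.

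The 250 bases before the annotated start are shown for Adcy1, Adcy2 and Adcy5, because these 3 isoforms held the largest shares of the adenylyl cyclase mix in the regions described next. The sequences are from RefSeq (GRCm38.p6), whose promoter table held 7 of the 9 members. Capitals mark the GC box letters GGGCGG on either strand, and overlapping matches run together. The windows are chr11:7063183-7063432 on the plus strand for Adcy1, chr13:68999542-68999791 on the minus strand for Adcy2 and chr16:35154614-35154863 on the plus strand for Adcy5. The Adcy1 and Adcy5 windows end short of the GENCODE starts given above (7063489 and 35154877). Bases checked after the window matched a GENCODE transcript for Adcy2 and Adcy5 but not for Adcy1.
Adcy1: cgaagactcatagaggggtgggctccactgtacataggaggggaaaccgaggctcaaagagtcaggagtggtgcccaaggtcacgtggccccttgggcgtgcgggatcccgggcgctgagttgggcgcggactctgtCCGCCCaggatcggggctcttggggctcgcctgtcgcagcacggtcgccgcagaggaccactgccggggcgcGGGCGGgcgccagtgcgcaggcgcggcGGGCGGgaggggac
Adcy2: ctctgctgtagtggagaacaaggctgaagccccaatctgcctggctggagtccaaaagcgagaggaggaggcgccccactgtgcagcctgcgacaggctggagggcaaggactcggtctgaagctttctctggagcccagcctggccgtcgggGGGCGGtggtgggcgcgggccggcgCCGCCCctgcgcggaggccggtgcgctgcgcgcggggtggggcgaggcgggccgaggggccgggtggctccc
Adcy5: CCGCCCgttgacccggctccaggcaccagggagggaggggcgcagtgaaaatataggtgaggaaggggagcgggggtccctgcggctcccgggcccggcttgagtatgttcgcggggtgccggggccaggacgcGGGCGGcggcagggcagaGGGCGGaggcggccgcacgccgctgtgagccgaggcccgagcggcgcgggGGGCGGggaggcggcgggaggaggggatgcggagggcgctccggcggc
GC content was 71.2% in the Adcy1 window, 73.2% in the Adcy2 window and 78.0% in the Adcy5 window, against a median of 52.4% over all 32851 windows of this length in the table. The Adcy1 window holds 3 GC boxes, the Adcy2 window 2 and the Adcy5 window 4, and 32.7% of all windows hold at least 1. The cyclic AMP response element letters TGACGTCA, present in 1.55% of all windows, and their shorter form TGACG, present in 17.8%, were on neither strand in the 3 windows shown. A match is only a description of the letters.

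Across the 98 libraries used, 23032078 to 52069639 counts fell in genes and 24079 to 27347 genes had a count. Member counts ranged from 82 for Adcy4 in 1 PrL library to 62960 for Adcy1 in 1 VBT library, so every member was well sampled. The third VTA male water library was left out: it had counts for 6333 genes, listed Adcy3, Adcy4 and Adcy7 at 0, and scored 1.21 on the VTA markers against 6.91 on the VBT markers (mean log2(CPM + 1) of each list, which holds 6 genes). In the libraries used, VTA markers (Th, Slc6a3, Slc18a2, En1, Pitx3 and Foxa2) scored 3.94 to 6.47 in VTA and at most 1.78 elsewhere, and VBT markers scored 6.38 to 8.19 in VBT and at most 4.63 elsewhere. Some libraries carried markers of a neighbouring tissue. In 4 VBT libraries the striatum markers scored 4.55 to 6.41 (VBT median 3.11), PrL male water 3 scored 5.48 on olfactory bulb markers (PrL median 1.07), and cortex markers ranged from 2.49 to 6.33 over NAc libraries. VBT female fentanyl 1 scored 2.49 on Y-linked genes, where the other female libraries scored at most 0.451 and males at least 5.42. Xist, the RNA of the inactive X chromosome, scored at least 8.50 in females and up to 4.52 in males (NAc male fentanyl 1), with 3.89 in VTA male water 2 and 3.36 in PrL male water 1. Choroid plexus markers were highest in VBT female water 2 (7.51, VBT median 1.31), VTA male water 2 (5.53, VTA median 1.97) and VBT male fentanyl 5 (4.66), and the highest NAc score was 4.11 in male fentanyl 3. Without VTA male water 2, Adcy5 and Adcy6 were still called in VTA males and Adcy4 was not. In tissue punches, fewer cells of a type and less RNA per cell cannot be told apart.

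The regions differed widely in their adenylyl cyclases. Among water libraries, edgeR's quasi-likelihood test over the 5 regions called all 9 members at an adjusted p under 0.05, the threshold used throughout, but it called 92.1% of all genes as well. What set some members apart was the size of the difference. The range of region means was 3.22 on the log2 scale for Adcy1, wider than in 96.7% of 20216 genes tested, and wider than in 95% of genes for Adcy5, 94.5% for Adcy8, 92.3% for Adcy7 and 89.2% for Adcy2. Adcy3 (0.63, wider than 45.2% of genes) and Adcy6 (0.69) ranged near the middle of all genes.

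Adcy1, the neuronal calcium-stimulated isoform, was the cortical and thalamic member. It had lowest, median and highest values of 1145, 1250 and 1314 CPM in S1 water libraries and of 767, 1268 and 1407 CPM in VBT. In PrL these values were 575, 976 and 1043 CPM, in NAc 223, 319 and 556 CPM, and in VTA 119, 132 and 140 CPM. The VTA water libraries were all below every water library of the other regions. By mean CPM the order was S1 (1230 ± 59.2, SD, n = 9), VBT (1200 ± 210, n = 10), PrL (928 ± 144, n = 10), NAc (386 ± 136, n = 10) and VTA (132 ± 7.25, n = 9). S1 and VBT did not differ beyond their spread (edgeR adjusted p = 0.862), and each later step did: VBT exceeded PrL by 0.41 ± 0.13 (log2, SE; adjusted p = 0.00618), PrL exceeded NAc by 1.36 ± 0.14 and NAc exceeded VTA by 1.56 ± 0.14. The step from VBT to PrL was 0.10 ± 0.13 in fentanyl libraries (adjusted p = 0.490) and was not called there.

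Adcy8, also stimulated by calcium, was the thalamic member. Its lowest, median and highest values were 42.6, 89.6 and 109.7 CPM in VBT water libraries, 45.45, 49.96 and 60.87 CPM in VTA and 6.53, 12.2 and 17.2 CPM in NAc. The 2 lowest VBT values, 42.6 and 50.5 CPM, came from libraries that carried striatum markers. VBT exceeded VTA by 0.82 ± 0.15 (edgeR, log2, SE; adjusted p = 8.22e-06), and by 1.02 ± 0.10 without the libraries of mixed tissue. VTA exceeded S1 by 0.42 ± 0.15 (adjusted p = 0.0153), S1 (36.3 CPM) and PrL (30.0 CPM) did not differ beyond their spread (adjusted p = 0.127), and PrL exceeded NAc by 1.32 ± 0.15. The step from S1 to PrL was 0.38 ± 0.13 in fentanyl libraries (edgeR adjusted p = 0.0205) and was called there. Adcy3, an isoform first known from olfactory signalling, was flatter: NAc (74.7 ± 4.52 CPM, SD), VTA (73.2 ± 5.82) and PrL (68.1 ± 7.23) did not differ at either step, and PrL exceeded S1 (48.1 ± 4.47) by 0.51 ± 0.06 (edgeR, log2, SE; adjusted p = 7.06e-10). S1 and VBT (48.0 ± 2.39 CPM) did not differ beyond their spread (adjusted p = 0.430). Among fentanyl libraries, however, PrL exceeded VTA by 0.32 ± 0.05 (edgeR, log2, SE; adjusted p = 4.87e-08).

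Adcy5, the calcium-inhibited isoform of striatal neurons, was the accumbens member. In NAc water libraries its lowest, median and highest values were 560, 867 and 1191 CPM. The highest value in any other region was 405 CPM, in the VBT library with the highest striatum score, so NAc did not overlap the other regions. NAc (865 ± 214 CPM, SD, n = 10) exceeded VBT (230 ± 77.1) by 1.78 ± 0.12 (edgeR, log2, SE; adjusted p = 1.64e-18). VBT in turn exceeded VTA (176 ± 16.1 CPM) by 0.51 ± 0.12 (adjusted p = 0.000194), and this step shrank to 0.25 ± 0.07 without the libraries of mixed tissue, where it was still called. VTA and PrL (154 ± 11.9 CPM) did not differ beyond their spread (adjusted p = 0.442). PrL exceeded S1 (127 ± 12.7 CPM) by 0.29 ± 0.12 (adjusted p = 0.0432), a step that was lost with offsets for GC content (adjusted p = 0.160).

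Adcy6, the other calcium-inhibited isoform, ran the opposite way in NAc. Its lowest, median and highest values were 35.7, 52.8 and 56.8 CPM in NAc water libraries, where every library lay below every water library of the other regions, which ranged upward from 64.2 CPM. VTA (83.2 ± 10.9 CPM, SD), VBT (79.8 ± 7.67), S1 (77.7 ± 6.95) and PrL (74.2 ± 1.73) did not differ beyond their spread at any of the 3 steps between them, but across 2 steps VBT exceeded PrL by 0.15 ± 0.06 (edgeR, log2, SE; adjusted p = 0.0322). PrL exceeded NAc by 0.62 ± 0.07 (edgeR, log2, SE; adjusted p = 4.18e-11). Among fentanyl libraries S1 exceeded VTA by 0.31 ± 0.09 (edgeR, log2, SE; adjusted p = 0.00174).

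Among the isoforms stimulated by beta-gamma subunits, Adcy2 was highest in cortex. Its lowest, median and highest values were 177, 208 and 231 CPM in PrL water libraries and 138, 155 and 171 CPM in S1. They were 90.5, 98.9 and 106.6 CPM in VTA, 65.7, 94.7 and 129 CPM in NAc, and 40.6, 50.7 and 64.5 CPM in VBT. The VBT water libraries were all below the water libraries of every other region. PrL exceeded S1 by 0.42 ± 0.08 (edgeR, log2, SE; adjusted p = 6.47e-05), S1 exceeded VTA by 0.72 ± 0.09, VTA and NAc did not differ beyond their spread (adjusted p = 0.861), and NAc exceeded VBT by 0.80 ± 0.08. The step from VTA to NAc was 0.23 ± 0.08 in fentanyl libraries (edgeR adjusted p = 0.0112) and was called there. Adcy7, better known from immune cells, was the VTA member, with lowest, median and highest values of 28.8, 33.7 and 44.6 CPM there and at most 17.7 CPM in any water library elsewhere. VTA exceeded PrL (13.5 ± 2.69 CPM, SD) by 1.26 ± 0.13 (edgeR, log2, SE; adjusted p = 1.54e-11), PrL exceeded VBT (8.25 ± 2.82 CPM) by 0.68 ± 0.13, and S1 (6.81 CPM) and NAc (6.49 CPM) did not differ beyond their spread (adjusted p = 0.346). The step from VBT to S1 was small (0.32 ± 0.14, adjusted p = 0.0369) and was lost with offsets for GC content (adjusted p = 0.174).

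Adcy4 was the lowest member per kilobase in NAc, PrL, VBT and VTA. Its lowest, median and highest values were 5.93, 7.58 and 8.81 CPM in VTA water libraries and 3.23, 3.73 and 5.08 CPM in PrL, so that these 2 regions did not overlap. VTA exceeded VBT (5.26 ± 0.501 CPM, SD) by 0.31 ± 0.10 (edgeR, log2, SE; adjusted p = 0.00896), but in fentanyl libraries this step was 0.02 ± 0.10 (adjusted p = 0.865). Endothelial markers (Cldn5, Pecam1, Flt1, Cdh5 and Ly6c1) had the same outer regions, with a median score over all libraries of 5.41 in VTA and 4.78 in PrL, and their part in the difference was not tested. Adcy9 was highest in S1, where its lowest, median and highest values were 57.6, 69.9 and 97.4 CPM. It was lowest in VTA (27.1, 33.1 and 42.6 CPM), below every S1 library. S1 exceeded PrL (52.5 ± 7.60 CPM, SD) by 0.45 ± 0.11 (edgeR, log2, SE; adjusted p = 0.000826), a step that was 0.22 ± 0.13 in fentanyl libraries (adjusted p = 0.184). NAc and VBT did not differ beyond their spread (adjusted p = 0.822), and VBT exceeded VTA by 0.48 ± 0.11.

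**Figure D1:**
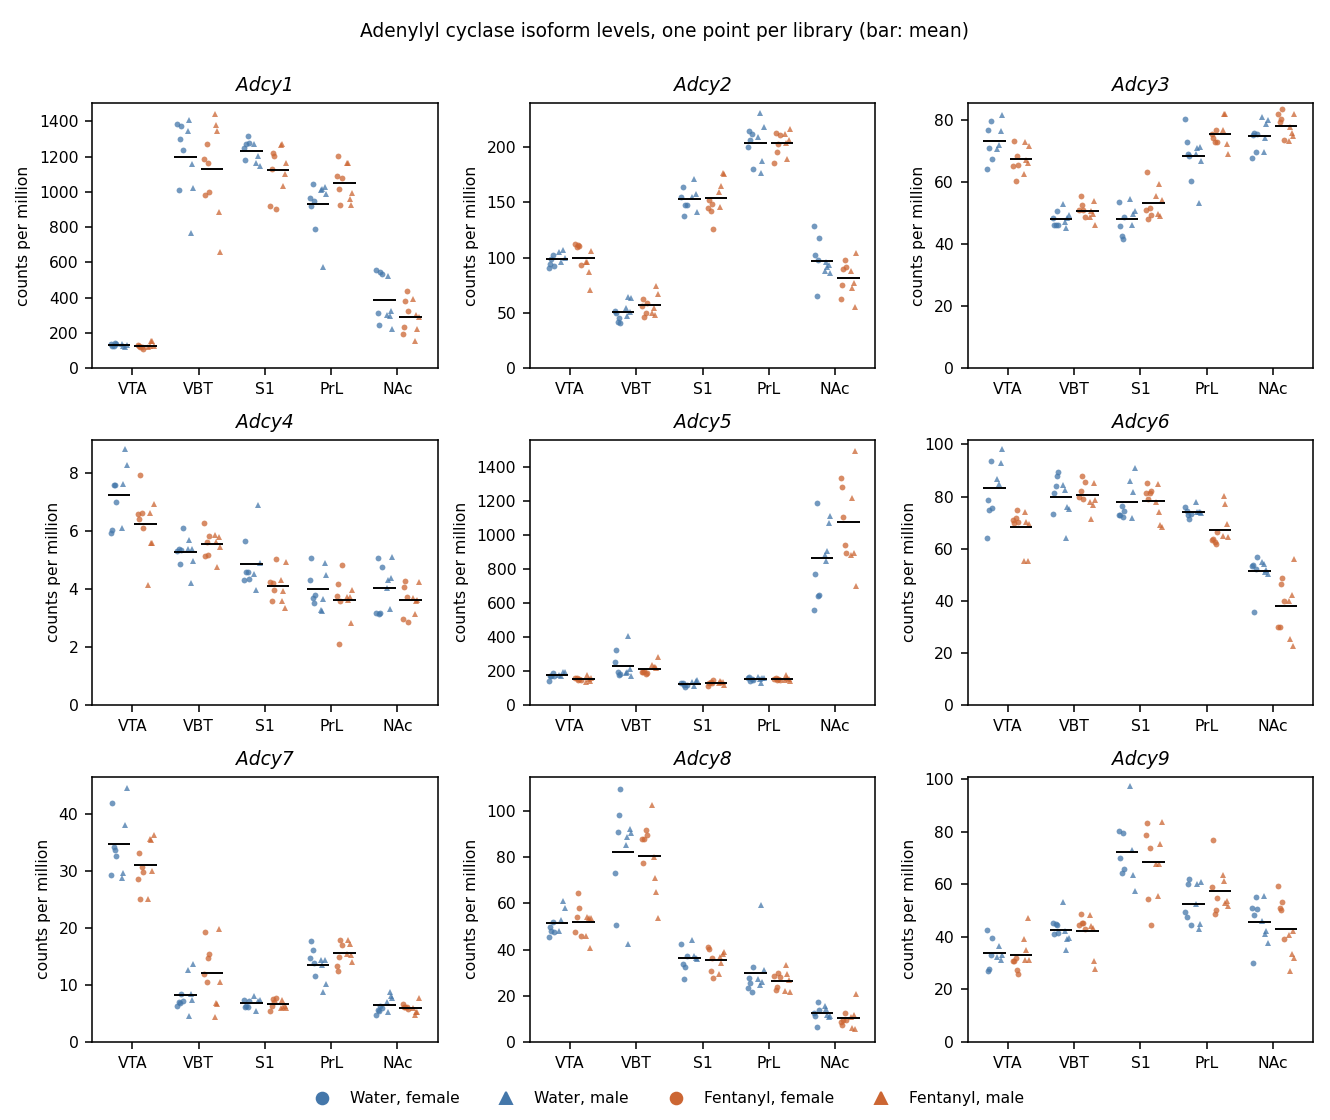
Level of each adenylyl cyclase gene in CPM (linear axis from 0) in the 5 regions, 1 point per library (circles females, triangles males, blue water, orange fentanyl) with a bar at the mean of each region and treatment. Adcy5 stands at 560 to 1191 CPM in NAc water libraries, and Adcy7 at 28.8 to 44.6 CPM in VTA, above the other regions.

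Taking the regions in pairs, edgeR called between 5 of the 9 members (VBT against S1, where 69.8% of all genes were called) and 9 of 9 (VBT against PrL, 70.1% of all genes). The counts were 8 for VTA against VBT (54.4% of all genes), 8 for VTA against S1 (69.2%), 6 for VTA against PrL (68.2%), 7 for VTA against NAc (66.2%) and 8 for VBT against NAc (69.8%). Within the forebrain they were 7 for S1 against PrL (39.5% of all genes), 8 for S1 against NAc (55.1%) and 7 for PrL against NAc (52.1%). The median size of the difference was 1.16 (log2) over the members for PrL against NAc, against 0.26 over all genes. It was 0.32 over the members for VBT against S1, below the 0.46 of all genes.

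To compare isoforms with each other, CPM values were divided by the exon length of each gene in kilobases, and each member's share of the sum over the 9 members was taken. In water libraries Adcy1 held 52.9% ± 6.57 (SD, n = 10) of the sum in VBT, 51.2% ± 2.12 (n = 9) in S1 and 40.4% ± 3.31 (n = 10) in PrL. Adcy5 held 57.8% ± 10.1 (n = 10) in NAc. Adcy2 was next in both cortical regions, with 26.6% ± 1.47 in PrL and 18.9% ± 1.37 in S1. The VTA had no dominant isoform: Adcy5 held 24.0% ± 0.897 (n = 9), Adcy2 23.0% ± 0.917, Adcy6 12% ± 0.876, Adcy3 11.5% ± 0.470 and Adcy1 10.4% ± 0.917.

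By class, the calcium-stimulated isoforms held 62.8% ± 7.49 of the mix in VBT, 57.6% ± 1.75 in S1, 48.5% ± 2.37 in PrL, 28.0% ± 0.703 in VTA and 21.9% ± 6.39 in NAc water libraries. The calcium-inhibited isoforms held 61.6% ± 9.57 in NAc, 36.0% ± 1.66 in VTA, 24.5% ± 6.69 in VBT, 17.8% ± 1.26 in PrL and 15.2% ± 1.47 in S1. The isoforms stimulated by beta-gamma subunits held 29.6% ± 0.783 in VTA and 28.2% ± 1.42 in PrL, and 8.13% ± 1.64 in VBT. The summed level per kilobase was lowest in VTA, at 102 ± 6.25 CPM per kb, and 180 ± 12.2 to 206 ± 17.8 CPM per kb in the other regions. The evenness of the mix, given as the exponential of its Shannon entropy (9 would be 9 equal isoforms), was 7.23 ± 0.105 in VTA, 5.06 ± 0.246 in PrL, 4.51 ± 0.178 in S1, 4.45 ± 0.277 in VBT and 3.85 ± 0.613 in NAc. These shares sum to a fixed total and carry no test. They depend on the division by exon length: as shares of CPM, Adcy1 (19.1%) exceeded Adcy2 (14.3%) in VTA, and Adcy2 held 13.4% in PrL and 8.72% in S1. By class on that scale the calcium-stimulated isoforms held 37.2% ± 1.19 in VTA, near the calcium-inhibited at 37.5% ± 1.81, and the beta-gamma-stimulated held 20.4% ± 0.664 in VTA and 14.6% ± 1.07 in PrL.

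**Figure D2:**
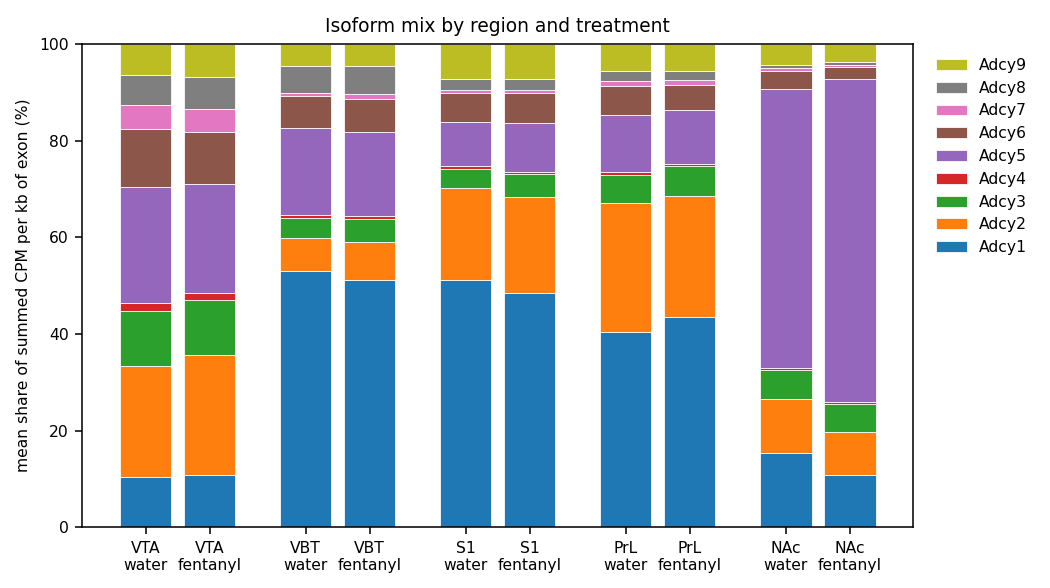
Mean share of each adenylyl cyclase gene in the summed CPM per kilobase of exon (percent) for water and fentanyl libraries of each region, 1 stacked bar per region and treatment. Adcy1 is 52.9% of the VBT water bar and Adcy5 is 57.8% of the NAc water bar, while the largest share in the VTA water bar is 24.0%.

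The genes whose level most resembled each member were found by Pearson's correlation of log2(CPM + 1) over the 98 libraries, among 10154 protein-coding genes with a mean of 10 CPM or more, with no p because libraries of 1 region share its make-up. For Adcy5 these were Rarb (r = 0.98) and Tbc1d8 (0.98), and for Adcy1 they were Ttc7b (0.97) and Atrnl1 (0.95). Adcy2 was most like Tbc1d24 (0.96) and Sept9 (0.96), and Adcy8 was most like Plcb4 (0.96) and Paqr7 (0.94). The closest for the others were Mast1 for Adcy6 (0.92), Mrgpre for Adcy7 (0.92), Lrpap1 for Adcy3 (0.92), Kcnh5 for Adcy9 (0.88) and Tie1 for Adcy4 (0.85). Among the members themselves, Adcy6 and Adcy8 were the most alike pair (r = 0.82) and Adcy5 and Adcy6 the most opposed (r = -0.81).

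The comparison of fentanyl with water within each region asks whether perinatal exposure changed the adenylyl cyclases. In VTA over both sexes the members were called about as often as genes in general, and 0 were called in either sex or over both with offsets for GC content or with the left-out VTA male water library kept, as described after the values. In VTA with both sexes averaged, 2 of 9 members were called, Adcy5 and Adcy6, both lower in fentanyl, where 12% of all genes were called lower and 23.1% in either direction. In VTA males 3 of 9 were called, Adcy4, Adcy5 and Adcy6, all lower, against 11% of all genes called lower and 22.0% in either direction. The count of genes in males fell from 4355 to 2659 without male water 4. In VTA females 0 of 9 were called by edgeR, as were 0 of 19822 genes (0.0%), while 2 members and 2518 genes had an unadjusted p under 0.05. DESeq2 called 0 members and 86 genes there. The test of whether the effect differed between the sexes called 0 members by edgeR and by DESeq2 (0.0% of genes by edgeR), with 3 members and 2256 of 19822 genes at an unadjusted p under 0.05. The median over the 9 members was a change of -0.12 (log2) with both sexes averaged, against 0.00 over all genes.

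Adcy6 had the lowest log2 change of the members in VTA males and over both sexes, but not in females. In VTA males it stood at 86.7, 84.8, 92.8 and 98.1 CPM in the 4 water libraries and at 55.5, 73.9, 70.4, 55.3 and 69.6 CPM in the 5 fentanyl libraries, so every fentanyl library lay below every water library. Groups that did not overlap in this way, with fentanyl below, were seen for 13.2% of all genes in VTA males. The VTA marker score was 5.63 to 6.47 in the male water libraries and 3.94, 5.85, 6.07, 4.78 and 5.34 in the male fentanyl libraries, in the same order. The 2 fentanyl libraries lowest in Adcy6, fentanyl 1 and 4, had the 2 lowest of these scores and the 2 lowest astrocyte scores (6.93 and 7.06), and the part of tissue make-up in the result was not tested. In females the water libraries stood at 64.3, 78.7, 74.8, 93.5 and 75.5 CPM and the fentanyl libraries at 71.1, 69.8, 71.8, 75.0 and 70.3 CPM, with overlap. The log2 change was -0.45 ± 0.08 in males (edgeR, SE; adjusted p = 0.00239), -0.13 ± 0.08 in females (adjusted p = 0.504) and -0.29 ± 0.06 over both (adjusted p = 0.00211). The male minus female difference was -0.32 ± 0.11 (adjusted p = 0.420), which did not pass.

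Adcy5 moved less. In VTA males the water libraries were at 180, 172, 194 and 196 CPM and the fentanyl libraries at 134, 179, 156, 144 and 162 CPM. The fentanyl value of 179 CPM lay within the water range, so the groups overlapped in 1 library. The lowest values, 134 and 144 CPM, again came from fentanyl 1 and 4. In females the water libraries were at 143, 170, 172, 188 and 169 CPM and the fentanyl libraries at 157, 159, 146, 155 and 151 CPM. The log2 change was -0.22 ± 0.07 in males (edgeR, SE; adjusted p = 0.0201), -0.15 ± 0.06 in females (adjusted p = 0.341) and -0.19 ± 0.05 over both (adjusted p = 0.00651). The male call was lost without male fentanyl 1, male water 4 or male water 5, each left out in turn (adjusted p 0.0656, 0.0599 and 0.0647).

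Adcy4 in VTA males stood at 6.11, 7.62, 8.81 and 8.27 CPM with water and at 4.14, 6.63, 5.59, 5.58 and 6.93 CPM with fentanyl, with overlap. Its log2 change was -0.38 ± 0.13 (edgeR, SE; adjusted p = 0.0452). This call was close to the threshold and was lost in 11 of the 19 fits that each left out 1 library: 6 of the VTA male libraries (fentanyl 1, 3 and 4, water 2, 4 and 5) and 5 of the VTA female libraries, with adjusted p up to 0.147. The endothelial marker score was 5.29 ± 0.132 (SD, n = 5) with fentanyl and 5.49 ± 0.0909 (n = 4) with water in the same libraries, and its part in the result was not tested. Over both sexes Adcy4 (-0.21 ± 0.09, edgeR adjusted p = 0.106) and Adcy3 (-0.12 ± 0.04, adjusted p = 0.0516) missed the threshold. The other 5 members had changes between -0.16 and 0.01 over both sexes and were not called.

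GC content moved with these results. For each VTA library a GC trend was computed as Spearman's rho, across 12814 genes, between exon GC content and the library's departure from the regional mean in log2 CPM. In males the trend was 0.655 ± 0.0501 (SD, n = 4) with water and -0.379 ± 0.206 (n = 5) with fentanyl, with no overlap. In females it was 0.0681 ± 0.541 with water and -0.353 ± 0.248 with fentanyl. All 9 members have exons richer in GC than the median gene. GC content was 59.5% in Adcy5, higher than in 94.7% of genes tested, 55.4% in Adcy6 (81.2%) and 54.0% in Adcy4 (74.7%). It was 57.0% in Adcy9 (87.7%) and 56.7% in Adcy3 (86.6%), of which Adcy3 was just short of a call over both sexes and turned to 0.07 with GC offsets. With a GC offset for each gene and library, 0 members were called in VTA by edgeR (1 over both sexes and 5 in males had an unadjusted p under 0.05), and 4.79% of all genes were called over both sexes and 4.29% in males. Under those offsets the male change was -0.24 ± 0.07 for Adcy6 (adjusted p = 0.0560) and -0.23 ± 0.13 for Adcy4 (adjusted p = 0.344), and for Adcy5 the sign turned to 0.13 ± 0.06 (adjusted p = 0.241). With the left-out VTA male water library kept, edgeR also called 0 members, with 2 over both sexes and 3 in males at an unadjusted p under 0.05, and it called 0.309% and 0.216% of all genes.

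**Figure D3:**
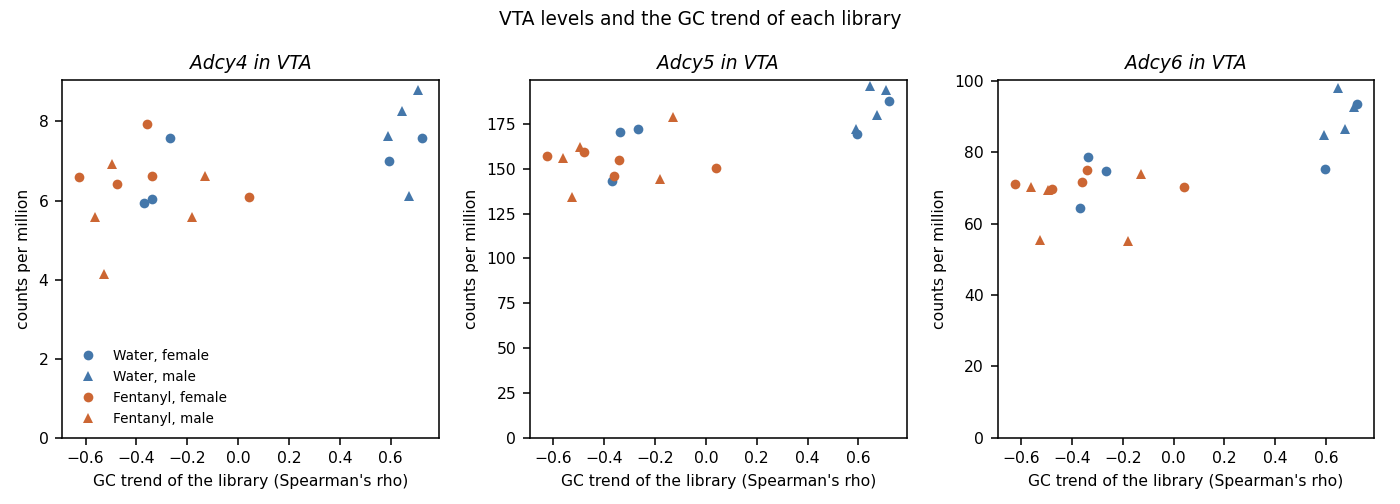
VTA levels of Adcy4, Adcy5 and Adcy6 (CPM, axis from 0) against the GC trend of each of the 19 VTA libraries (Spearman's rho, no unit), with circles for females, triangles for males, blue for water and orange for fentanyl. The 4 male water libraries sit at a trend of 0.590 to 0.709 and the 5 male fentanyl libraries at -0.562 to -0.130.

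In VBT, S1, PrL and NAc 0 of 9 members were called in any contrast by edgeR, and 0 by DESeq2. Few genes of any kind were called there by edgeR: over both sexes 1.03% in S1 (0.213% lower in fentanyl), 0.697% in PrL (0.556% lower), and 0.0% in VBT and NAc. Within a sex they were 0.142% in S1 females (0.0152% lower), 0.021% in PrL females, 0.662% in NAc males and 0.0% in each remaining contrast. Leaving out 1 library at a time moved these counts by over 1.5 times in most fits: 13 of 20 in NAc males (129 genes with all libraries, 0 to 813 without 1), 15 of 19 in S1 females (28, 0 to 220), 14 of 19 in S1 over both sexes (203, 30 to 502), 14 of 20 in PrL over both sexes (133, 38 to 289) and 18 of 20 in PrL females (4, 0 to 7). Some counts of 0 moved too, to as many as 449 for the NAc difference between the sexes, 55 in NAc over both sexes, 30 in S1 males and 24 in VBT males. At an unadjusted p under 0.05 there were, over both sexes, 4 members in PrL (3638 of 19074 genes), 3 in NAc (2343 of 19480), 2 in S1 (3127 of 19748) and 1 in VBT (1606 of 18923). In females these counts were 1, 2, 2 and 2 in the same order, in males 2, 2, 0 and 0, and in the difference between the sexes 0, 1, 1 and 1. In 3 instances the female groups did not overlap, and each is given here because of that.

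In VBT females, Adcy7 stood at 6.26, 6.95, 6.82, 8.46 and 7.28 CPM with water and at 11.9, 19.3, 10.6, 14.8 and 15.5 CPM with fentanyl. Every fentanyl library was above every water library, as for 1.70% of all genes in VBT females. Its log2 difference of 0.996 ± 0.32 was not called (edgeR adjusted p = 0.451). The first of these fentanyl libraries is the one with the high score on Y-linked genes, and without it and the libraries of mixed tissue the difference was 1.03. In males the water libraries ranged from 4.58 to 13.7 CPM and the fentanyl libraries from 4.32 to 19.9 CPM, a wide overlap. The male minus female difference was -0.99 ± 0.46 (edgeR adjusted p = 0.601).

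Adcy6 gave the other 2 instances, in opposite directions. In S1 females it stood at 73.0, 72.9, 76.4, 72.0 and 74.6 CPM with water and at 81.3, 85.4, 79.1, 81.3 and 82.0 CPM with fentanyl, all higher, as for 2.81% of all genes. The log2 difference there was 0.14 ± 0.06 (edgeR adjusted p = 0.312). The GC trend, computed in S1 as in VTA, was -0.254 ± 0.206 (SD, n = 5) with water and 0.192 ± 0.209 with fentanyl in these females, and with GC offsets the difference was 0.06 ± 0.05 (adjusted p = 0.676). In PrL females it stood at 76.1, 74.5, 72.9, 71.4 and 73.4 CPM with water and at 63.4, 63.7, 62.7, 61.6 and 66.3 CPM with fentanyl, all lower, as for 1.60% of all genes. The share of reads outside exons also separated these groups, at 12.1% to 14.1% with water and 9.99% to 11.8% with fentanyl. The PrL difference was -0.18 ± 0.06 (edgeR adjusted p = 0.309), and -0.21 ± 0.09 with that share in the model (adjusted p = 0.850), and over both sexes it was -0.12 ± 0.04 (adjusted p = 0.122). Neither was called in the main fit, but with GC offsets Adcy6 was called in PrL over both sexes, as given below. The difference between the 2 regions was not tested.

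In NAc the values of 3 members are given beside the cortex marker score of the libraries. These 3 were not picked by their p: in males a member other than Adcy6 had the smallest adjusted p by edgeR. Of the members not picked, Adcy7 in males was at 7.37 ± 1.31 CPM (SD, n = 5) with water and 5.80 ± 1.13 CPM with fentanyl. Adcy3 in females was at 72.7 ± 3.81 CPM (n = 5) with water and 79.6 ± 3.84 CPM with fentanyl, and neither was called. Adcy5 in females stood at 560, 774, 1191, 644 and 648 CPM with water and at 1341, 1283, 1109, 946 and 898 CPM with fentanyl, a log2 difference of 0.55 ± 0.20 (edgeR adjusted p = 0.544). The 1 water library among the fentanyl values, at 1191 CPM, had the lowest cortex marker score of its group (4.12). Adcy1 in the same females stood at 556, 311, 246, 546 and 535 CPM with water and at 194, 232, 383, 438 and 325 CPM with fentanyl, a log2 difference of -0.49 ± 0.31 (edgeR adjusted p = 0.615). The cortex markers (Tbr1, Neurod6, Slc17a7, Emx1 and Neurod2, each with counts in every NAc library) scored 4.12 to 6.33 with water and 2.49 to 5.69 with fentanyl in these females, and the striatum markers scored 7.14 to 8.62 and 8.18 to 8.72. Adjusted for the cortex score, the female differences were 0.25 ± 0.12 for Adcy5 and 0.01 ± 0.19 for Adcy1. The score itself differed in range between these groups, and the part of tissue make-up in the differences was not tested.

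Adcy6 in NAc males stood at 55.1, 54.1, 51.1, 51.9 and 50.4 CPM with water and at 40.1, 25.3, 42.4, 22.6 and 55.9 CPM with fentanyl. The water libraries were tightly grouped, and 1 fentanyl library lay above them all. The log2 difference was -0.47 ± 0.20 (edgeR adjusted p = 0.228), and -0.42 ± 0.08 with the cortex score as a covariate, where it passed (adjusted p = 0.0165). The 2 lowest fentanyl values belong to the 2 male libraries with the lowest cortex scores, 2.94 and 3.23. In females the log2 difference of this gene was -0.38 ± 0.20, and -0.02 ± 0.09 with that covariate, and neither value was called. The part of tissue make-up was not tested here either.

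**Figure D4:**
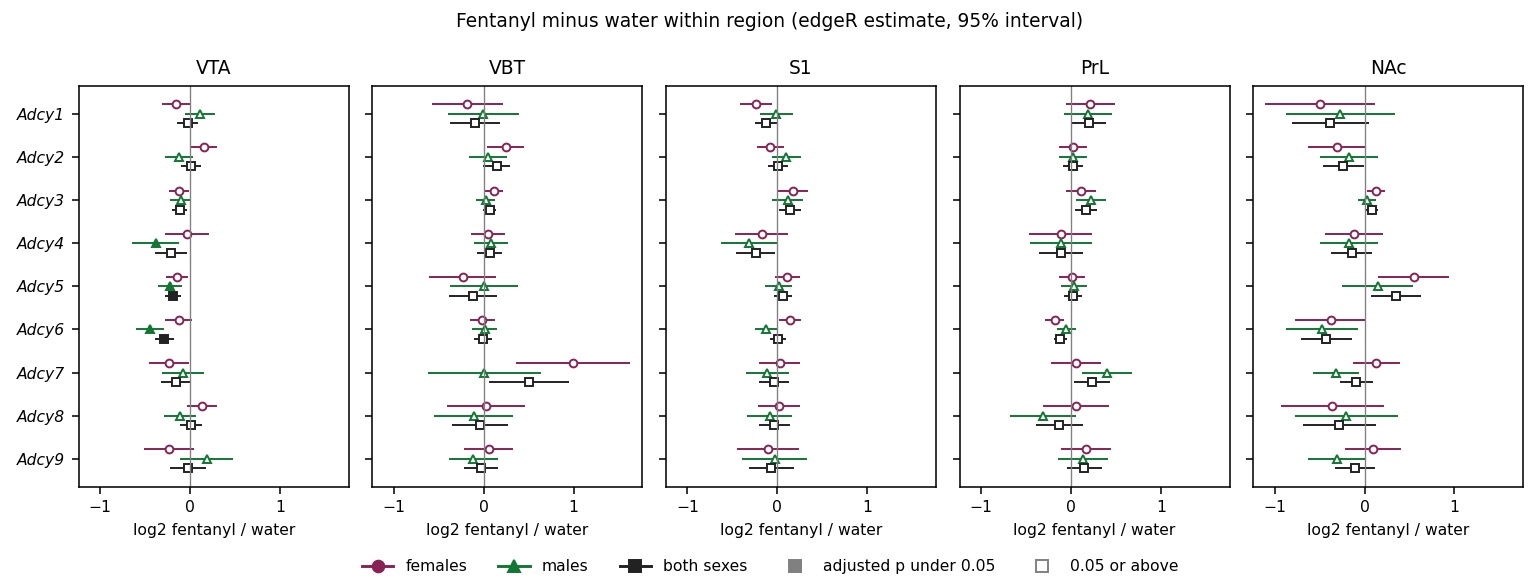
Log2 ratio of fentanyl to water for each adenylyl cyclase gene in the 5 regions, with 95% intervals from edgeR (circles females, triangles males, squares both sexes; filled symbols passed an adjusted p of 0.05). The filled symbols are Adcy5 and Adcy6 over both sexes and Adcy4, Adcy5 and Adcy6 in males, all in VTA and all below 0.

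The other genes of the cyclic AMP pathway were read from a list of 50: G protein alpha subunits, calmodulins, phosphodiesterases that break cyclic AMP down, protein kinase A subunits, other effectors and modulators. In VTA over both sexes 48 were tested, of which 10 were higher and 8 lower in fentanyl (37.5%, against 23.1% of all genes), and in males 11 were higher and 6 lower (35.4%, against 22.0%). With GC offsets 1 of these was higher and 0 were lower in each comparison, where 4.79% and 4.29% of all genes were called. Over both sexes Creb1, a transcription factor that protein kinase A activates, rose by 0.30 ± 0.06 (log2, SE; edgeR adjusted p = 0.00358), and Crtc1, its coactivator, fell by 0.26 (adjusted p = 0.00178). Gnai3, an inhibitory alpha subunit, rose by 0.22 ± 0.04 (adjusted p = 0.00206). Rapgef3, a cyclic AMP-activated exchange factor for Rap, fell by 0.25 (adjusted p = 0.00700), and by 0.39 in males (adjusted p = 0.00590).

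The stimulatory subunits, singled out after their values were seen, went in different directions in VTA over both sexes: Gnas, which encodes Gs alpha, fell by 0.17 (edgeR adjusted p = 0.0123) while Gnal, which encodes Golf alpha, rose by 0.17 ± 0.05 (adjusted p = 0.0116). In males Gnal went from 182 ± 5.46 CPM (SD, n = 4) with water to 223 ± 11.6 CPM (n = 5) with fentanyl, a rise of 0.33 ± 0.07 (edgeR, log2, SE; adjusted p = 0.00317). Pkig, an inhibitor of protein kinase A, went from 23.4 ± 1.64 to 16.1 ± 3.03 CPM in the same males and fell by 0.51 on the log2 scale (edgeR adjusted p = 0.00537). Pde7b, a cyclic AMP phosphodiesterase, rose by 0.36 ± 0.08 (adjusted p = 0.00512). Of the 14 phosphodiesterases tested, 3 rose and 0 fell over both sexes (23.1% of all genes were called), and with GC offsets at most 1 gene of the whole list was called.

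Outside VTA the list gave 2 calls over both sexes or within 1 sex, 1 in PrL over both sexes (0.697% of all genes called) and 1 in NAc males (0.662%), where leaving out 1 library moved the count of all genes as given before. Pde1a, a calcium-activated phosphodiesterase, was at 262 ± 48.0 CPM (SD, n = 10) with water and 340 ± 22.5 CPM with fentanyl in PrL over both sexes, a rise of 0.40 ± 0.09 (edgeR, log2, SE; adjusted p = 0.0412). Calm2, a calmodulin gene, was at 1119 ± 66.2 CPM (n = 5) with water and 1409 ± 112 CPM with fentanyl in NAc males, a rise of 0.37 ± 0.08 (edgeR adjusted p = 0.0390). The Pde1a call was lost with the replicate block, with no filter on low counts and with each library's share of reads outside exons in the model, and the Calm2 call was lost with the block and with offsets for exon length. Over both sexes, 0 of 49 genes were called by edgeR in VBT (3 at an unadjusted p under 0.05, 0 by DESeq2) and 0 of 49 in S1 (9 at an unadjusted p under 0.05, 2 lower by DESeq2). The gene nearest to a call in VBT was Prkar1b, a regulatory subunit of protein kinase A, at 0.17 ± 0.07 (log2, SE; edgeR adjusted p = 0.527). In S1 it was Pde7a, a cyclic AMP phosphodiesterase, at -0.20 ± 0.05 (adjusted p = 0.0552).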

How the data were processed

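RNA from 10 ng inputs was made into libraries with the Smart-Seq v4 kit, per the labels' protocols. The deposited values are whole-number counts per Ensembl gene that the authors made with HTSeq against GRCm38, per the submitters' processing notes; the aligner and annotation release are not given in the sources used here. Of 55335 identifiers, 55154 matched GENCODE M21. Lines that name no gene stayed out of library sizes and tests, and they held 16.2% to 24.0% of the counts of a library.

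Totals were 23032078 to 52069639 counts in the 98 libraries used, and 1 VTA male water library with under 10000 genes detected was left out. No 2 replicates agreed within sampling noise (lowest chi-square per degree of freedom 6.47 over 192 pairs). Fits used edgeR 4.0.16 (TMM, filterByExpr, robust quasi-likelihood F-test, Benjamini-Hochberg over all genes tested), 1 per region over its 4 groups, plus 1 over 48 water libraries with sex as a covariate. On simulated data for VTA over both sexes, on 19822 genes, 91 of 100 genes changed 2-fold and 76 of 100 changed 1.5-fold were recovered, with 5 false calls. Within 1 sex recovery was lower: 79 and 60 of 100 in VTA males with 11 false calls, 78 and 57 in VTA females with 2, and 82 and 48 in NAc males with 6, the last on 19480 genes. The simulated counts carried no GC trend, so their false calls do not measure those in the real VTA data. The members called in VTA had smaller changes than those simulated, at 0.73 to 0.88 of the water level. Alternatives were DESeq2 1.42.0, other filters and size factors, offsets, covariates and leaving out libraries.

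All 9 members are named in every region. Pathway genes are named as the up to 2 called genes with the smallest p in each direction, or, in a region with none, the 1 nearest to a call. Gnas, and Gnal over both sexes, are given outside this rule. CPM values divide by the plain total of counts in genes. Members and lists were chosen with earlier results of these data known. 1 gene of the cortex marker list is not reported here and was left out of that score.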

Additional observations from a re-analysis of the deposited data

Results flagged for a closer look

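Each member was checked in every group of 4 or 5 libraries for a lowest or highest value whose gap to the rest was large against the whole range of the group. Of 180 such groups, 15 had a value that stood apart, where chance gives about 1 in 20, or 9.0. Several of these came from libraries that carried markers of a neighbouring tissue, and the part of that tissue in the values was not tested.

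PrL male water 3, with the olfactory bulb score of 5.48, stood apart in 4 members: Adcy1 at 575.1 CPM (986.0 to 1025.0 CPM in the other 4), Adcy3 at 53.26 CPM (66.6 to 71.27), Adcy5 at 128.8 CPM (155.7 to 163.2) and Adcy8 at 59.4 CPM (24.84 to 31.08). VBT male water 3, with a striatum score of 6.41, had Adcy5 at 405.3 CPM (168.7 to 210.1 in the others) and Adcy8 at 42.6 CPM (85.31 to 92.22). VBT male fentanyl 5, with a striatum score of 5.19, had Adcy5 at 285.9 CPM (216.4 to 233.8). NAc female water 3, with the lowest cortex score of its group (4.12), had Adcy6 at 35.71 CPM (52.39 to 56.83).

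Of the other 7 values, 3 came from libraries with a marker score that was the highest of its region. How many of all libraries hold such a highest score was not counted, so this is a description only. VTA female fentanyl 3 scored 2.95 on cortex, 5.69 on blood and 8.45 on astrocyte markers, S1 female water 2 scored 4.199 on choroid plexus markers (S1 median 1.21) and PrL male water 1 scored 3.83 on them (PrL median 0.976). In VTA, Adcy2 was at 93.54 CPM in female fentanyl 5 (109.5 to 112.1 in the others) and Adcy4 at 7.938 CPM in female fentanyl 3 (6.096 to 6.613). In VBT, Adcy8 was at 77.4 CPM in female fentanyl 2 (87.78 to 91.62). In S1, Adcy3 was at 62.99 CPM in female fentanyl 2 (48.1 to 51.7) and Adcy4 at 5.655 CPM in female water 2 (4.315 to 4.586). In PrL, Adcy6 was at 77.76 CPM in male water 1 (73.73 to 74.13), and in NAc, Adcy9 was at 30.13 CPM in female water 2 (48.42 to 55.09).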

How the results depend on the processing

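Between regions, 123 of 131 alternative counts of members called equalled the main count or stayed within 1.5 times of it. For fentanyl, members were called in VTA only, over both sexes and in males, and a count that stayed at 0 elsewhere says nothing about stability. Both the GC offsets and keeping VTA male water 3 gave 0 members in VTA over both sexes and 0 in males. Leaving out 1 library gave 1 to 3 members in VTA males, with 1 without male fentanyl 1, male water 4 or male water 5. GC offsets gave 1 member in PrL over both sexes (Adcy6, -0.12, adjusted p = 0.0346; 1.77% of all genes called), each library's share of reads outside exons in the model gave 1 in NAc over both sexes (Adcy5, 0.43, adjusted p = 0.0469; 1.46%), and the cortex covariate gave 1 in NAc males (3.24%). Adcy5 in VTA reversed to 0.0663 over both sexes and 0.1277 in males with GC offsets, and Adcy3 over both sexes reversed to 0.0655 with GC offsets and 0.0421 with VTA male water 3 kept. Adcy1 in NAc females reversed from -0.49 to 0.0096 with the cortex covariate. Between regions, keeping that library gave 5 members for VTA against VBT (29.6% of all genes called), 3 for VBT against PrL (44.5%), 5 for VBT against NAc (43.9%) and 2 for S1 against PrL (11.8%). Males alone gave 5 for VBT against PrL (59.6%), and S1 against PrL gave 4 with females alone (26.2%), males alone (17.0%) or no filter (19.7%). Without division by exon length, Adcy5 held 25.5% in VTA and Adcy1 68.2% in VBT, 70.0% in S1 and 60.4% in PrL, and 43 of 99 alternative values of the shares of all members moved beyond the spread between libraries. The cause of these changes was not tested. The count over all genes in VTA was 4580 over both sexes and 4355 in males, and fell to 60 and 42 with VTA male water 3 kept. DESeq2 called 645 in S1 and 778 in PrL over both sexes (edgeR 203 and 133). It also called 920 in NAc males (edgeR 129), 486 for the NAc difference between the sexes (edgeR 0) and 406 in S1 females (edgeR 28). The alternatives on striatum markers in VBT and on mixed tissue between regions were chosen after seeing the data.

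The replicate numbers are not stated to pair samples, and the correlations of same-numbered fentanyl and water libraries ran from -0.53 to 0.59 (median 0.07, 22 of 48 over 0.1), so the numbers were not taken as pairs. Between regions of 1 sex and treatment the correlations ran from -0.34 to 0.57 (median 0.05, 73 of 192 over 0.1). The main fit over regions took its libraries as independent. With the replicate block no call of a member changed: in VTA males the changes were -0.41 for Adcy4, -0.22 for Adcy5 and -0.45 for Adcy6. Over all genes the block gave 2 calls in NAc males (129 without), 112 in S1 over both sexes, 51 in S1 females (28 without) and 0 in PrL females (4 without).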
